A study of Mus musculus with 12 samples.

Results

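The genes described here carry out haem synthesis and breakdown and the assembly of iron-sulfur clusters. The 35 genes were taken by symbol from textbook steps of these pathways, out of 24411 gene symbols in each library. They were chosen with earlier results of these data known. All 35 were found, and all 35 passed the filter on low values (at least 1 TPM, a transcript abundance scaled to the same total in every library, in 2 or more libraries), as did 16133 symbols in all. They fell into 7 enzymes of haem synthesis, 3 carriers of mitochondrial iron import, 4 enzymes of haem breakdown, 15 genes of mitochondrial iron-sulfur assembly and 6 of cytosolic assembly.

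Haem is made in a chain of enzymes that starts in the mitochondrion with ALAS1, passes through the cytosol and ends in the mitochondrion, where ferrochelatase inserts iron into protoporphyrin. Haem oxygenases open the haem ring again and release its iron, and biliverdin reductases take up the product. Iron-sulfur clusters are built in the mitochondrion from iron and the sulfur of cysteine on the scaffold ISCU, and a separate cytosolic machinery, which depends on the mitochondrial one, serves enzymes of DNA replication, repair and translation. Both pathways use iron as a substrate, and the cells' iron supply is known to feed back on several of their genes.

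The study measured gene expression in NR5A1(+) cells, the somatic cells of the fetal mouse gonad that carry the nuclear receptor NR5A1. Every sample had the genotype Nr5a1-hCD271, and the titles of the E11.5 samples, unlike those of the cultured ones, also carry the label WT. The control XY group (n = 3), the Dfo XY group (n = 3) and the control XX group (n = 2) came from gonads taken at E10.8 together with aorta, mesonephros and mesenchyme and kept on filters for 19.2 h in high-glucose DMEM plus 10% horse serum. The Dfo XY group received 150 µM Dfo, that is deferoxamine, which binds iron, and XX gonads with Dfo were not analysed here. The E11.5 XY and E11.5 XX groups (n = 2 each) are labelled as gonads of that age, and because the same culture text stands on them, how they were collected is not settled. Nothing in the labels says that replicates came from separate embryos or litters, so the p-values cover only the spread among the libraries, which may be technical.

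Some libraries stood apart. Xist, the RNA of the inactive X chromosome, was at 13.6 and 24.6 TPM in Dfo XY replicates 1 and 2, against 0.01 to 0.28 TPM in Dfo XY replicate 3 and the control XY libraries and 166 to 175 TPM in control XX, so these Dfo XY libraries went against their label in part. Replicates 1 and 2 of control XY, and likewise of Dfo XY, were closer to each other than any other pair of replicates, with a median absolute log2 difference of 0.07 and 0.08 against 0.13 to 0.19 over 4928 genes. Between Dfo XY and control XY, results are therefore also given without the Xist-holding libraries, and with each close pair averaged into 1 library, where that ended a call. The RNA component of RNase P, Rpph1, took 15.3% to 23.6% of all TPM in the cultured XY libraries and 6.96% to 7.20% in control XX, which lowers the TPM of all other genes by different amounts. The depth of sequencing cannot be read from TPM and is unknown.

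Hmox1, Cpox, Urod and Glrx5 kept their change with Dfo under every alternative tried. The promoters of Cpox, Urod and Glrx5 are shown because they stand for both directions, and no RefSeq window was given for Hmox1. The 250 bases before the RefSeq start (GRCm38.p6, the assembly of mm10) lie at chr16:58669958-58670207 on the plus strand for Cpox, at chr4:116994414-116994663 on the minus strand for Urod and at chr12:105032368-105032617 on the plus strand for Glrx5. Capitals mark ACGTG, the core bound by hypoxia-inducible factors, on either strand.
Cpox: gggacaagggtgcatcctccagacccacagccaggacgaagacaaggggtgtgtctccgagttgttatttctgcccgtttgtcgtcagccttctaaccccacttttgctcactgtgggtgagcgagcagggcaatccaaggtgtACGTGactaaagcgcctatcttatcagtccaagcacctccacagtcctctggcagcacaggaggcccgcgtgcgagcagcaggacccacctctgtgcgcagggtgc
Urod: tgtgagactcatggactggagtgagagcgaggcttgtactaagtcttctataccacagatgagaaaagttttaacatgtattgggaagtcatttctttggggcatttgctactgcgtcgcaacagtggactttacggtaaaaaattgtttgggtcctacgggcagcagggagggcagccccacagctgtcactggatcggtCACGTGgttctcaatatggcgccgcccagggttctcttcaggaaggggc
Glrx5: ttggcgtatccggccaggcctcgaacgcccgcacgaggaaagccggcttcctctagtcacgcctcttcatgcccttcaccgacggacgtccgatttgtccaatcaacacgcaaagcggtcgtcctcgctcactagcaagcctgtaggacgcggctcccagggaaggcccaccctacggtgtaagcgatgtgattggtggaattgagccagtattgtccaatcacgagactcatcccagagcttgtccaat
The Cpox sequence held ACGTG once, 106 bases before the RefSeq start. For Cpox and Glrx5, unlike Urod, the first bases after that start were found in no GENCODE transcript of the gene. GENCODE begins Cpox farther on, at 58670292, so the distance depends on the start used. In Urod the core stood on both strands, at 48 and 49 bases before the start, in 1 palindrome, and Glrx5 held none. ACGTG was found in 16.6% of 32851 promoter windows of the same length as those searched, so a match is a description of the letters and not of binding. RefSeq windows were given for 29 of the 35 genes, in 40 windows, and ACGTG was in 11 of these 40 (27.5%). Windows of the same gene can overlap and share a site, as those of Mms19 do, so the windows are not independent. Among the other motifs searched on both strands, TGACNNNGC, a core of the antioxidant response element, was in 6 of 40 against 10.2% of all windows, GCGCANGCG, a core bound by NRF1, in 7 of 40 against 5.16%, and CCGGAAG, an ETS core, in 7 of 40 against 6.91%. TGATGNAA, an ATF4 core, was in none of the 40 windows and in 3.45% of all.

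The main question of the design is what iron chelation changed in XY gonadal cells. Between Dfo XY and control XY, the 35 genes did not move as a block: 4 rose (Hmox1, Cpox, Hspa9 and Fdx1), 9 fell (Glrx5, Urod, Fdxr, Nfs1, Alad, Ciapin1, Bola3, Nubp1 and Iscu) and 22 did not pass the test. Hmox1 and Cpox had the largest rises, and Fdxr, Bola3 and Nfs1 the largest falls. A change was called at an adjusted p below 0.05 in limma, with Benjamini-Hochberg adjustment over 16133 genes. Over all genes 15.5% were called (4.98% higher and 10.5% lower), against 37.1% of these 35 (11.4% higher and 25.7% lower). Because the 35 genes were chosen with earlier results of these data known, these shares are a description and not a test of the set. Among 11866 genes that reached 5 TPM in 2 or more libraries, a floor nearer to the level of these genes, 22.7% were called. Without regard to the test, the Dfo XY and control XY libraries did not overlap for 22 of the 35 genes, 5 higher and 17 lower, against 11.6% and 26.5% of all genes.

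The median log2 change of the 35 genes was -0.28, against -0.17 over all genes. Scaling by the median of ratios put the median of all genes at -0.05 and left 4 rises and 7 falls, without Nubp1 and Iscu. Over all genes that scaling moved the calls from 803 higher and 1695 lower to 1520 higher and 1024 lower. With the replicate number as a block the same 13 genes were called, while the calls over all genes went from 2498 to 3843. Averaging the close replicates left 3 rises and 4 falls, and 2 rises (Hmox1 and Cpox) and 2 falls (Urod and Glrx5) remained without the Dfo XY libraries that held Xist, which leaves 1 Dfo XY library, assumed to vary like the other groups. Without control XY replicate 1, and likewise without replicate 2, 8 genes were called, 3 higher and 5 lower.

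**Figure D1:**
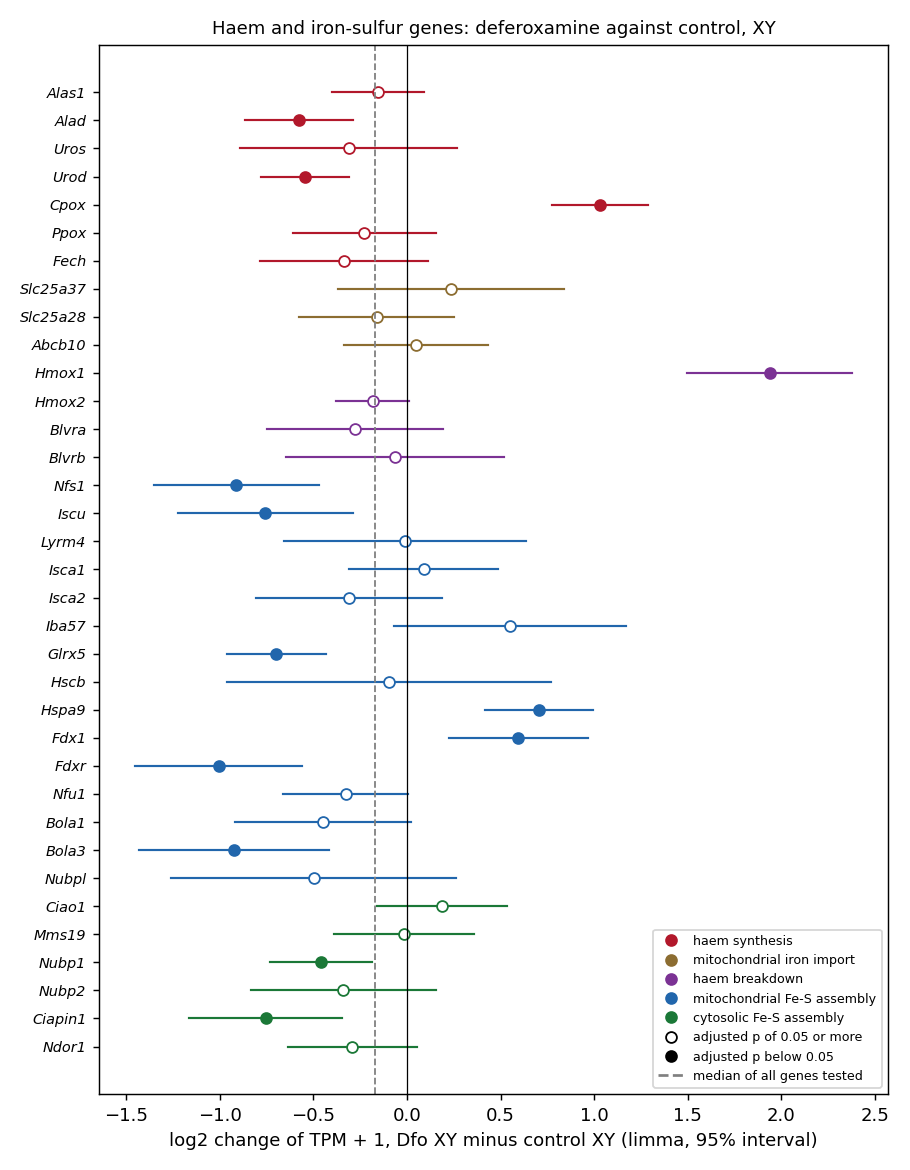
Log2 change in TPM + 1 with its 95% confidence interval for each of the 35 genes, Dfo XY against control XY (n = 3 each), coloured by pathway step, with filled points for called genes and a dashed line at the median of all genes. Hmox1 (1.94) and Cpox (1.03) lie farthest to the right, Fdxr (-1.01) farthest to the left, and most genes lie slightly below 0, as the median of all genes (-0.17) does.

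Tfrc, the transferrin receptor, whose messenger RNA is stabilised when iron is low, was read beside these genes. It stood at 60.2, 56.9 and 84.4 TPM in control XY and at 231, 241 and 276 TPM in Dfo XY, so that the groups did not overlap. Its log2 change was 1.89 ± 0.14 (SE). Of the 12 genes listed for iron uptake and handling it alone rose, and Slc11a2, an iron importer, and Pcbp1, an iron chaperone, fell by 0.57 and 0.35. The part of low iron in these changes was not tested.

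Haem synthesis split in 2 directions. Of 7 enzymes 1 rose (Cpox), 2 fell (Alad and Urod) and 4 did not pass the test. Calls over all genes were 4.98% higher and 10.5% lower. Cpox (chromosome 16, 58670292 to 58717636, mm10), coproporphyrinogen oxidase, acts after Urod in the chain. It was at 16.8, 19.0 and 17.4 TPM in control XY and at 39.1, 35.8 and 37.1 TPM in Dfo XY. Every Dfo XY library was thus above every other library of the series, where the highest level was 22.7 TPM. The mean was 2.10 times the control mean, a log2 change of 1.03 ± 0.12 (limma adjusted p = 0.000113). Without the Xist-holding libraries it was 1.02.

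Urod (chromosome 4, 116989965 to 116994413), uroporphyrinogen decarboxylase, makes the substrate of Cpox. Its level was 85.2, 92.0 and 92.1 TPM in control XY and 61.7, 68.9 and 53.7 TPM in Dfo XY, with no overlap. The log2 change was -0.55 ± 0.11 (limma adjusted p = 0.00529). Alad (chromosome 4, 62509169 to 62519918), porphobilinogen synthase, was in control XY at 17.0, 15.2 and 17.1 TPM, and in Dfo XY at 10.5, 10.95 and 10.6 TPM. All Dfo XY libraries were below all libraries of the other 4 groups. Alad changed by -0.58 ± 0.13 on the log2 scale (limma adjusted p = 0.0122), and the adjusted p was 0.101 with the close replicates averaged, 0.141 without the Xist-holding libraries and 0.054 without control XY replicate 1.

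These changes altered the proportions within the pathway. The ratio of Cpox to Urod, taken within each library and so untouched by a single scaling factor per library, was 0.198 ± 0.009 (SD, n = 3) in control XY and 0.615 ± 0.088 in Dfo XY. Across the other groups it lay between 0.219 and 0.322. This ratio was chosen after its values were seen and is given as a description. Levels per length in control XY ran from Urod (mean 89.7 TPM) through Alas1, Fech, Ppox, Cpox and Alad to Uros, with Ppox and Cpox, Cpox and Alad, and Alad and Uros overlapping between libraries. In Dfo XY, Cpox stood above Fech, behind Urod and Alas1.

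The remaining enzymes were Alas1, Uros, Ppox and Fech. Alas1, the rate-limiting first enzyme outside red cells, was at 46.1, 49.5 and 50.1 TPM in control XY and at 43.9, 45.6 and 41.3 TPM in Dfo XY. Its log2 difference of -0.15 had a 95% interval of -0.40 to 0.09. Fech, which inserts the iron, differed by -0.34 (-0.78 to 0.11), and Ppox and Uros by -0.23 and -0.31, none of them called. Uros shares part of its locus with Bccip on the opposite strand, and Bccip differed by -0.60.

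A separate list held other genes of haem supply and control. Bach1, a haem-sensing repressor of Hmox1, rose by 0.70 on the log2 scale, with 51.6 to 54.7 TPM in control XY and 79.9 to 91.4 TPM in Dfo XY. Pgrmc1, a haem-binding membrane protein, rose by 0.43. Alas2, the red-cell form of the first enzyme, was at 1.25 to 6.96 TPM in control XY and 6.70 to 12.48 TPM in Dfo XY, and it was not called.

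In haem breakdown 1 of 4 genes rose, Hmox1, and the other 3 did not pass the test, where 4.98% of all genes were called higher. Hmox1 (chromosome 8, 75093621 to 75100589), the inducible haem oxygenase, was at 39.6, 48.3 and 43.3 TPM in control XY. In Dfo XY it reached 182, 177 and 153 TPM, with no overlap with any other library of the series, where the highest level was 70.7 TPM in control XX replicate 2. The mean was 3.90 times that of control XY, a log2 change of 1.94 ± 0.20 (limma adjusted p = 5.4e-05), which was the largest among the 35 genes.

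Hmox2, the constitutive haem oxygenase, was at 90.7, 86.7 and 98.3 TPM in control XY and at 85.6, 77.1 and 79.6 TPM in Dfo XY. Its log2 difference was -0.18 (95% interval -0.38 to 0.01). Within libraries, Hmox2 exceeded Hmox1 in all 9 libraries without Dfo, with a ratio of Hmox1 to Hmox2 of 0.214 to 0.613. In the 3 Dfo XY libraries the order was reversed, with ratios of 1.92 to 2.29. Blvra and Blvrb, the biliverdin reductases, differed by -0.28 and -0.06 and were not called. From 14 genes listed as targets of NRF2, a known activator of Hmox1, Pgd rose and none fell.

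Hmox1 is also abundant in macrophages that digest red cells, so the markers of both cell types were read beside it. The 16 macrophage markers summed to 119 to 213 TPM in control XY and to 157 to 255 TPM in Dfo XY, and none of the 16 was called by limma, with 1 at an unadjusted p below 0.05. The 15 erythroid markers summed to 337 to 2557 TPM in control XY and to 1400 to 3243 TPM in Dfo XY. Hbb-bs, an adult globin gene, was at 0 in all cultured libraries. The part of these cells in the change of Hmox1 was not tested. In such bulk samples fewer cells of a type and less RNA per cell cannot be told apart.

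**Figure D2:**
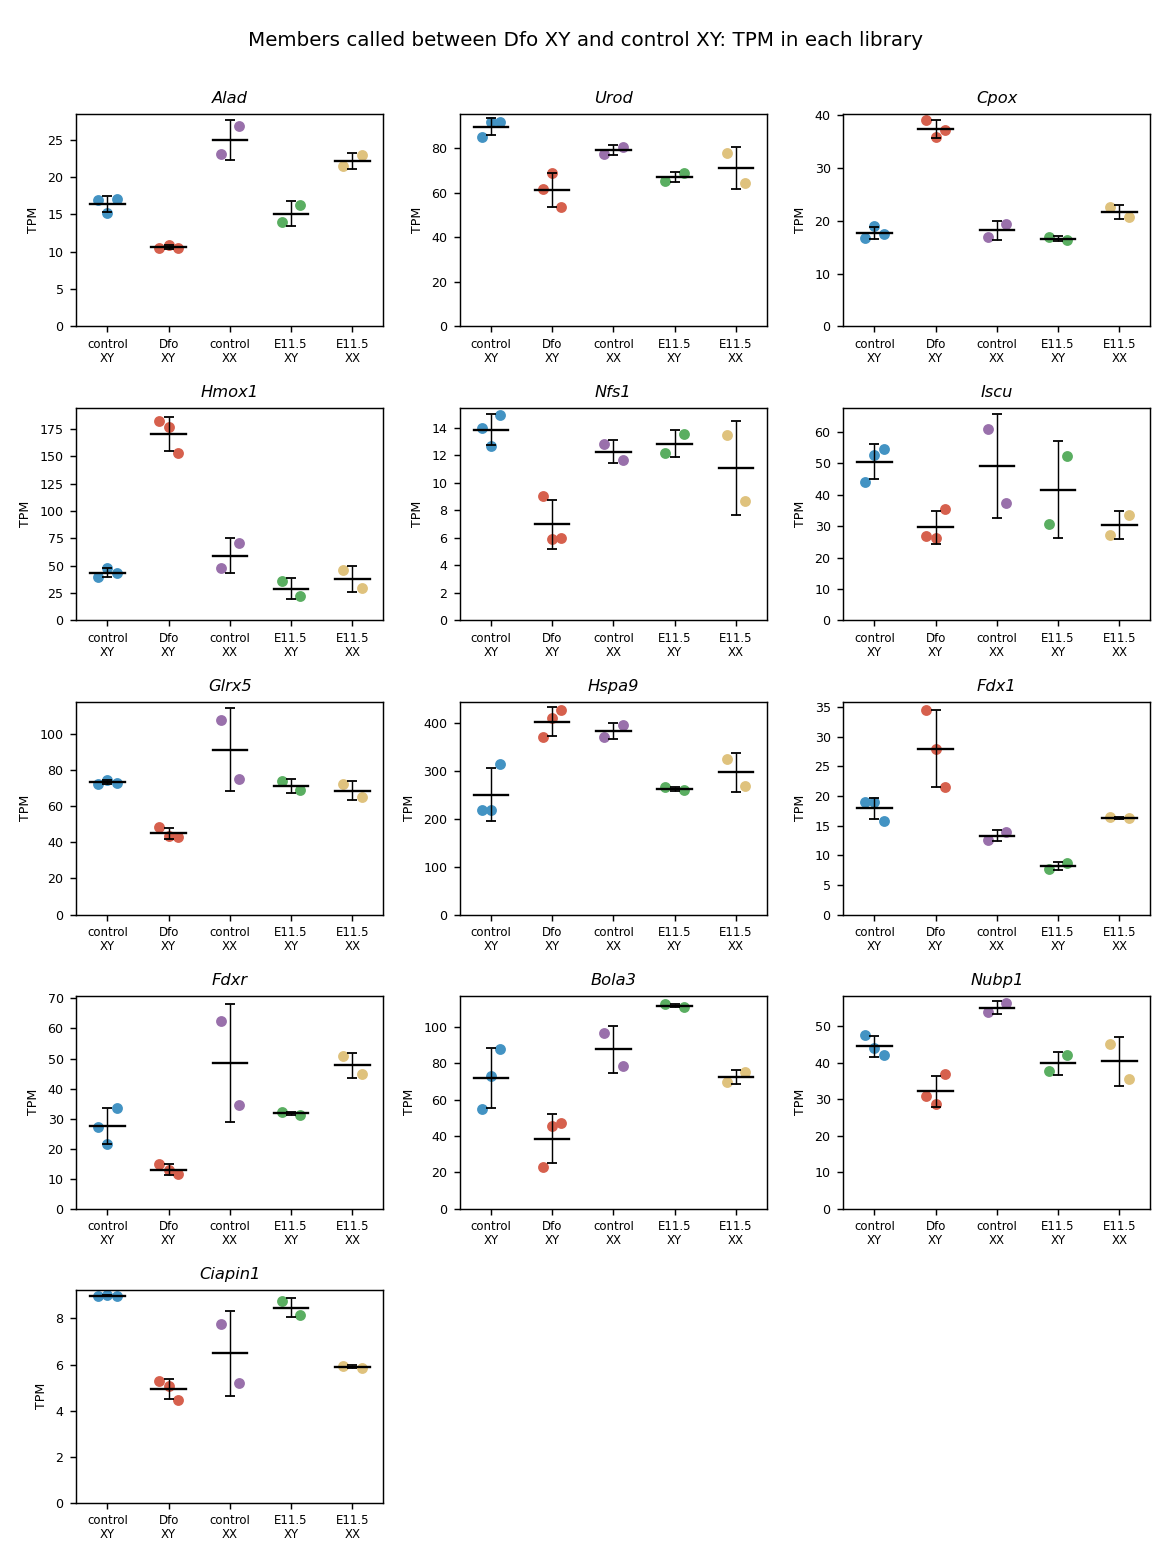
TPM in each of the 12 libraries (points, by group, with bars for the mean and SD, axes from 0) for the 13 genes called between Dfo XY and control XY. The Dfo XY points of Hmox1 and Cpox lie above the points of all other groups, and those of Alad and Fdxr lie below them.

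None of the 3 genes of mitochondrial iron import was called by limma, and none had an unadjusted p below 0.05. Slc25a37 and Slc25a28, the mitoferrins that carry iron across the inner membrane, differed by 0.24 and -0.16 on the log2 scale. Slc25a37 varied within groups, with 8.72 to 19.0 TPM in control XY and 11.9 to 22.6 TPM in Dfo XY. Abcb10, a transporter that stabilises the red-cell mitoferrin, differed by 0.05 (95% interval -0.34 to 0.43).

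In mitochondrial iron-sulfur assembly, the step with the most genes, 5 of 15 fell (Glrx5, Fdxr, Nfs1, Bola3 and Iscu). A further 2 rose (Hspa9 and Fdx1) and 8 did not pass the test. Over all genes 10.5% were called lower and 4.98% higher. The falls were in the sulfur donor Nfs1, the scaffold Iscu, the reductase Fdxr of the electron supply, and the late carriers Glrx5 and Bola3. They did not extend to every gene of these functions. Fdx1, also of the electron supply, rose, and Lyrm4, which acts with Nfs1, and the carriers Nfu1 and Nubpl were not called. Of the 5 falls only that of Glrx5 kept its call under every alternative tried. Nfs1 (chromosome 2, 156123639 to 156144186), the cysteine desulfurase that supplies the sulfur, was at 14.0, 12.7 and 14.9 TPM in control XY and at 9.06, 5.93 and 6.02 TPM in Dfo XY. The groups did not overlap. Its log2 change was -0.91 ± 0.20 (limma adjusted p = 0.00969), with an adjusted p of 0.0502 when the close replicates were averaged and 0.05 without the Xist-holding libraries. Its partner Lyrm4, which holds the desulfurase stable, differed by -0.01 (95% interval -0.66 to 0.63). Romo1, which overlaps Nfs1 on the opposite strand, differed by -0.30 and was not called. On the same strand Nfs1 is overlapped by Gm28036.

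Iscu (chromosome 5, 113772748 to 113778288), the scaffold on which the cluster is built, was at 44.2, 52.8 and 54.8 TPM in control XY and at 27.0, 26.3 and 35.6 TPM in Dfo XY. All Dfo XY values lay below the control XY values. The log2 change of -0.76 ± 0.22 (limma adjusted p = 0.0336) was near the threshold, and its call was lost under 11 of 22 alternatives, among them the median-of-ratios scaling (adjusted p = 0.0704), the fit with the close replicates averaged (0.179) and the fit without the Xist-holding libraries (-0.49, adjusted p = 0.462).

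Fdxr and Fdx1, the members listed for the electron chain of the pathway, moved in opposite directions. Fdx1l, another ferredoxin listed for cluster assembly, was counted apart among the further assembly genes, none of which was called. The opposite directions thus describe Fdxr and Fdx1 and not every ferredoxin of the pathway. Fdxr (chromosome 11, 115268024 to 115277050), the reductase that passes electrons to ferredoxins, was at 27.2, 21.6 and 33.5 TPM in control XY and at 14.9, 12.7 and 11.4 TPM in Dfo XY. Each Dfo XY library was below each library of the other groups. The log2 change was -1.01 ± 0.21 (limma adjusted p = 0.00627), with an adjusted p of 0.057 without the Xist-holding libraries.

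Fdx1 (chromosome 9, 51943306 to 51963556), a ferredoxin that receives those electrons and also serves steroid synthesis, was at 19.0, 18.9 and 15.8 TPM in control XY and at 34.5, 27.9 and 21.5 TPM in Dfo XY. The groups did not overlap, but the Dfo XY libraries were spread. The log2 change of 0.60 ± 0.17 (limma adjusted p = 0.0339) fell to 0.25 without the Xist-holding libraries (adjusted p = 0.589). The call was lost with the close replicates averaged (adjusted p = 0.2), and when Dfo XY replicate 1 or 2 (adjusted p = 0.155 and 0.103) or control XY replicate 1, 2 or 3 (0.0719, 0.0733 and 0.113) was left out.

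The ratio of Fdx1 to Fdxr, again within each library, was 0.699, 0.876 and 0.473 in the control XY libraries, and it was 2.32, 2.20 and 1.89 with Dfo. Fdxr exceeded Fdx1 in all 9 libraries without Dfo, and Fdx1 exceeded Fdxr in all 3 with it. This ratio and those of Hmox1 to Hmox2 were also chosen after their values were seen. Cyp11a1, the first enzyme of steroid synthesis and a user of this electron chain, fell by 1.21 on the log2 scale, from 28.2 to 45.9 TPM in control XY to 8.62 to 22.9 TPM in Dfo XY. The 10 steroidogenic markers summed to 87.0 to 104 TPM in control XY and to 51.4 to 73.5 TPM in Dfo XY, with 1 of 8 tested called. Cyp17a1 was at 0 in all Dfo XY libraries. Of the 10 markers, 0 or 1 stood at 0 in each control XY library and 2 or 3 in each Dfo XY library. That count was 2 or 3 in control XX, 0 or 4 in E11.5 XY and 1 in E11.5 XX. The part of steroidogenic cells in the Fdxr and Fdx1 values was not tested.

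Hspa9, the mitochondrial chaperone that takes the finished cluster off the scaffold and also imports proteins, was at 218, 217 and 314 TPM in control XY and at 369, 410 and 427 TPM in Dfo XY. Its values did not overlap. The log2 change was 0.70 ± 0.13 (limma adjusted p = 0.00403), with an adjusted p of 0.0501 without the Xist-holding libraries. Its cochaperone Hscb, which is used for clusters only, differed by -0.10 (95% interval -0.96 to 0.77), so the interval holds changes of either sign.

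Glrx5 (chromosome 12, 105032688 to 105042906), the glutaredoxin that relays clusters to their targets, was at 72.6, 74.9 and 73.0 TPM in control XY and at 48.4, 43.6 and 43.0 TPM in Dfo XY. Every Dfo XY library was below every other library of the series, where the lowest level was 65.1 TPM. The log2 change was -0.70 ± 0.12 (limma adjusted p = 0.00248). Bola3 (chromosome 6, 83349147 to 83360136), a late carrier that serves lipoate synthesis, was at 55.0, 73.2 and 87.7 TPM in control XY and at 23.0, 45.4 and 47.3 TPM in Dfo XY. Both groups were spread but did not overlap. Bola3 changed by -0.93 ± 0.23 (limma adjusted p = 0.0191). That became -0.57 (adjusted p = 0.19) without the Xist-holding libraries, and the adjusted p was 0.0602 without control XY replicate 2 and 0.0795 without replicate 3.

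The 8 other genes of this step were not called. Isca1, Isca2 and Iba57, which make the larger clusters, differed by 0.09, -0.31 and 0.55, and Iba57 was higher in every Dfo XY library (5.80 to 7.62 TPM) than in every control XY library (3.28 to 5.70 TPM). Nfu1, a carrier for lipoate synthase and complex II, differed by -0.33 (95% interval -0.66 to 0.00) without overlap. Bola1, Nubpl (a carrier for complex I), Lyrm4 and Hscb made up the rest.

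In cytosolic assembly 2 of 6 genes fell and none rose, where 10.5% of all genes were called lower and 4.98% higher. Ciapin1 (chromosome 8, 94819804 to 94838358), which carries electrons in this machinery, was at 8.98, 9.02 and 8.98 TPM in control XY and at 5.28, 5.05 and 4.46 TPM in Dfo XY, without overlap. Its log2 change was -0.76 ± 0.19 (limma adjusted p = 0.018). Coq9, which overlaps it on the opposite strand, differed by -0.08. Nubp1 (chromosome 16, 10411948 to 10424428), a scaffold of the cytosolic clusters, was at 47.6, 43.9 and 42.0 TPM in control XY and at 30.9, 28.7 and 37.0 TPM in Dfo XY. These groups did not overlap either, and the change was -0.46 ± 0.13 (limma adjusted p = 0.0268).

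Both calls were lost with the close replicates averaged (adjusted p = 0.134 and 0.227) and without the Xist-holding libraries (0.129 and 0.461), that of Ciapin1 also under quantile normalization (0.0633) and that of Nubp1 under median-of-ratios scaling (0.0653). Leaving out 1 library ended the call of Ciapin1 for Dfo XY replicates 2 and 3 and control XY replicates 1 and 2 (adjusted p = 0.0506 to 0.0638), and that of Nubp1 for Dfo XY replicates 1 and 2 and control XY replicates 1 and 2 (0.0726 to 0.115). Tvp23a, on the opposite strand of Nubp1, differed by -0.72 (adjusted p = 0.0582). Although the library kit keeps strand, the labels and notes do not give the strand setting used in quantification. Whether reads from stretches shared by such overlapping genes were kept apart is therefore not known. Nubp2, the partner of Nubp1, differed by -0.34, and Ciao1 and Mms19, which deliver clusters to their targets, by 0.19 and -0.02. Ndor1, the reductase for Ciapin1, differed by -0.29 (95% interval -0.64 to 0.05). Tmem203, which overlaps Ndor1 on the opposite strand, differed by -0.98 (limma adjusted p = 0.0164).

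Other genes of the cluster pathway were counted from lists. For scale, 10.5% of all genes were called lower and 4.98% higher. Among genes of at least 5 TPM in 2 or more libraries, 22.7% were called in either direction. Of 17 further assembly genes none was called by limma, with 3 at an unadjusted p below 0.05. Of 34 proteins that hold an iron-sulfur cluster, 32 were tested, of which 6 fell and 1 rose. Sdhb of complex II fell by 0.66 on the log2 scale, Ndufv1 and Ndufs8 of complex I fell by 0.52 and 0.46, and the one that rose was Rsad2, an interferon-induced enzyme (1.94 ± 0.23). Of 27 haem-binding proteins, 23 were tested, of which 5 fell and 2 rose. Cyb5b, an outer-membrane cytochrome, fell by 0.95, Cyc1 of complex III fell by 0.60, and Cyp51 of sterol synthesis rose by 1.24.

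Markers of the labelled cells moved in the same comparison. The 11 markers of NR5A1(+) gonadal cells summed to 1014 to 1169 TPM in control XY and to 762 to 860 TPM in Dfo XY, with 5 lower and none higher. Nr5a1 itself was at 97.2 to 127 TPM in control XY and 78.9 to 86.5 TPM in Dfo XY. The 12 mesenchyme markers summed to 1017 to 1067 and 692 to 912 TPM, with 5 lower. Of 10 mesonephric, 12 germ cell and 12 endothelial markers, 3, 1 and 0 were lower and none was higher. These marker counts stand beside 10.5% of all genes called lower. The part of the marked cells in the falls of the 9 genes was not tested.

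**Figure D3:**
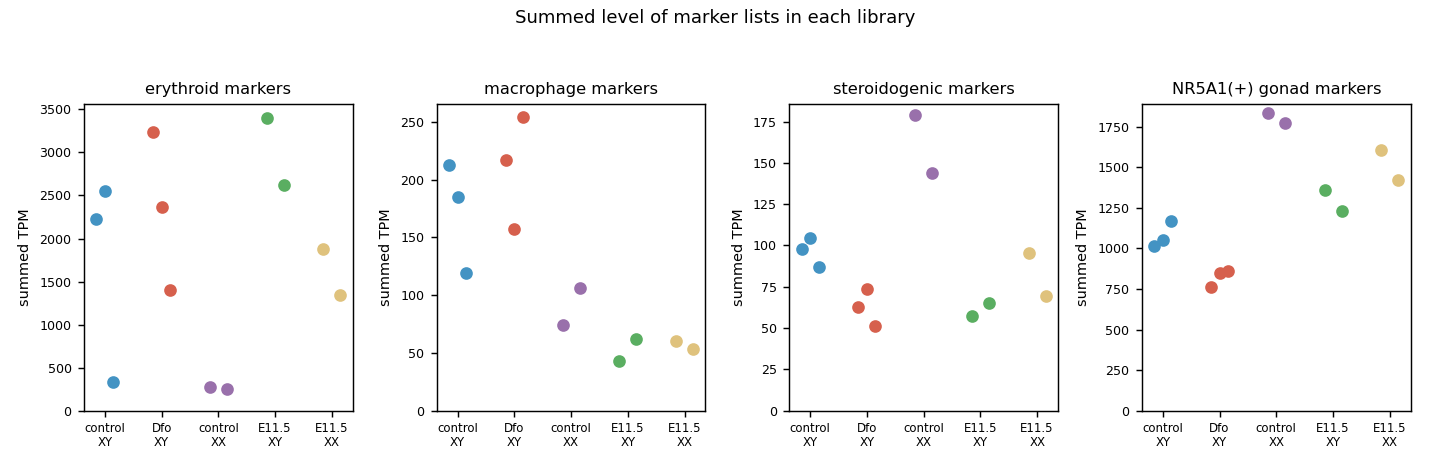
Summed TPM of erythroid, macrophage, steroidogenic and NR5A1(+) gonad markers in each library (1 point each), by group. Erythroid sums are spread within control XY (337 to 2557 TPM), and NR5A1(+) gonad sums are lower in Dfo XY (762 to 860 TPM) than in control XY (1014 to 1169 TPM).

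Among control cultures the sexes were compared. Of the 35 genes 6 were lower in control XY than in control XX, and none was higher. Over all genes 25.2% were called (2.97% higher and 22.2% lower), so the share of 17.1% of these genes called lower was below the background. The median of all genes was itself at -0.22, and 0.07 under median-of-ratios scaling. Under all 3 other scalings none of the 6 was called, and Urod alone was, as higher in XY (0.51 by median of ratios, adjusted p = 0.0363). Averaging the close replicates left 0 of the 6.

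Fdxr was at 62.3 and 34.6 TPM in control XX, and differed by -0.76 ± 0.23 between control XY and control XX (limma adjusted p = 0.0293). Hspa9 was at 371 and 395 TPM in control XX, above all control XY libraries, and differed by -0.64 ± 0.15 (limma adjusted p = 0.00977). Alad was at 23.1 and 26.9 TPM and differed by -0.58. Ciao1, of the cytosolic targeting complex, was at 18.2, 16.1 and 20.6 TPM in control XY and at 30.1 and 28.5 TPM in control XX, a difference of -0.65 ± 0.18 (limma adjusted p = 0.0196). Alas1 and Hmox2 were the other 2, with differences of -0.46 and -0.40, and Hmox2 turned to 0.02 under quantile normalization. The number of these 6 still called fell to 3 without control XX replicate 1, 2 without control XX replicate 2, 3 without control XY replicate 1 and 1 without control XY replicate 2.

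At E11.5 the sexes differed in 1 of the 35 genes, Fdx1, where 2.29% of all genes were called (1.09% higher and 1.2% lower in XY). Fdx1 was at 7.73 and 8.63 TPM in E11.5 XY and at 16.5 and 16.2 TPM in E11.5 XX, a log2 difference of -0.92 ± 0.21 (limma adjusted p = 0.0426). In control culture the order was the other way, with 12.6 and 14.0 TPM in XX and 15.8 to 19.0 TPM in XY (0.40, not called). The difference between the sexes changed by 1.32 ± 0.28 from E11.5 to culture (limma adjusted p = 0.0468), while 1.33% of all genes were called in this interaction (0.192% higher and 1.14% lower). Both calls sat at the threshold: the E11.5 call held under 6 of 22 alternatives and the interaction under 4 of 22. Lyrm4 was at 13.4 and 9.96 TPM in E11.5 XY and at 6.13 and 4.25 TPM in E11.5 XX, which was not called.

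Culture and E11.5 were compared within each sex. In XY, Fdx1 was the only one of the 35 genes called, higher in culture by 1.04 ± 0.19 (limma adjusted p = 0.00918), where 5.66% of all genes were called (2.62% higher and 3.04% lower). The call was lost without E11.5 XY replicate 1 (adjusted p = 0.0731) and with the close replicates averaged (0.064). In XX, limma called none of the 35, with 7 at an unadjusted p below 0.05, where 9.07% of all genes were called (7.36% higher and 1.71% lower). Alas1 was nearest, at 59.8 and 75.1 TPM in culture and 51.7 and 44.5 TPM at E11.5 (log2 difference 0.47, adjusted p = 0.051). Hmox1, at 22.3 to 46.2 TPM in the E11.5 libraries and 39.6 to 70.7 TPM in the control cultures, was not called in either sex. These comparisons hold 2 libraries in at least 1 group, and age, culture and any difference in collection cannot be told apart.

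**Figure D4:**
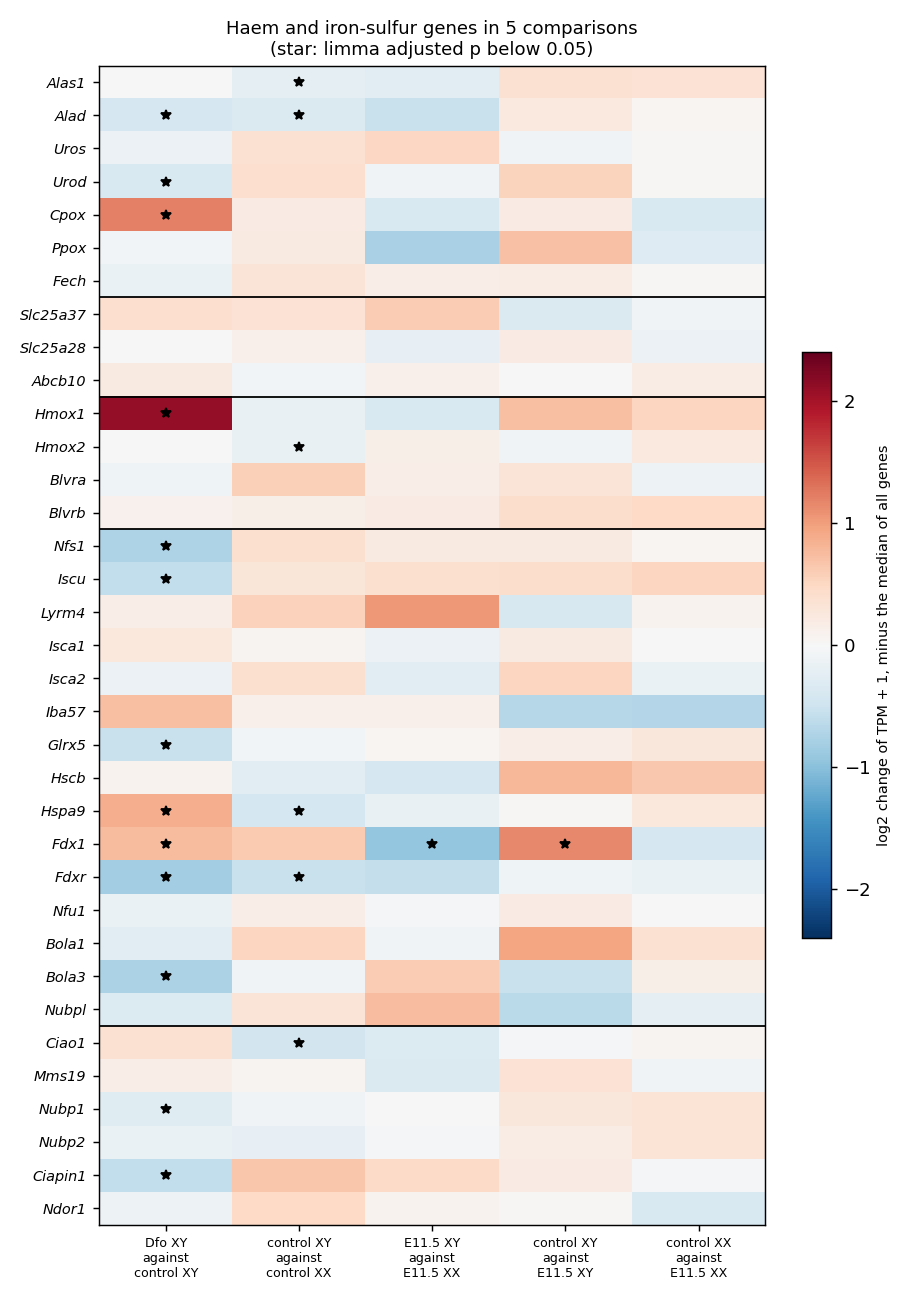
Log2 change in TPM + 1 of each gene (rows, by pathway step) minus the median of all genes (colour) in 5 comparisons of groups (columns), with a star for each call. Dfo XY against control XY holds 13 of the stars and control XY against control XX 6, and Fdx1 is the gene called in the E11.5 comparison and in the XY comparison of culture with E11.5.

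Dfo XY was also set against control XX, in which both the chelator and the sex differ. Here 14 of the 35 genes were called, 3 higher (Cpox, Hmox1 and Fdx1) and 11 lower. That is 40.0%, near the 38.6% of all genes called (4.79% higher and 33.8% lower). This comparison shares the Dfo XY libraries with the main one. Fdxr had the largest fall, from 62.3 and 34.6 TPM in control XX to 11.4 to 14.9 TPM in Dfo XY (-1.77 ± 0.23, limma adjusted p = 0.000114), and Bola3 and Alad fell by 1.22 and 1.15. Of the genes not called against control XY, Hmox2 differed by -0.59, Alas1 by -0.61 and Nubp2 by -0.76 in this comparison. The median of all genes was at -0.33, and with median-of-ratios scaling 4 were higher (Hspa9 added) and 3 lower (Fdxr, Alad and Glrx5). Over all 6 comparisons of groups, 17 of the 35 genes were called at least once and 18 in none.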

How the data were processed

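Expression was measured by RNA-seq in 12 libraries of NR5A1(+) fetal gonadal cells. The deposited values are TPM, 1 value per gene symbol and library. The submitters' processing notes name the genome mm10 and the tools RSEM, STAR 2.7.10b and R 4.1.2, and the annotation and strand setting were not given in the sources used here. No counting interval is given, since TPM values hold no depth.

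Groups were compared in R 4.3.3 by limma 3.58.1 fitted to log2(TPM + 1), which understates changes of low genes, with 1 coefficient per group, all 12 libraries in the fit and a variance trend. Genes reaching 1 TPM in 2 or more libraries were tested (16133), and every adjusted p is limma's with Benjamini-Hochberg adjustment within a comparison. The fit was tested on simulated data. The 35 genes, the other lists (from textbook knowledge) and the alternatives were chosen with earlier results of these data known. Genes given library by library were those called between Dfo XY and control XY, or elsewhere with an absolute log2 change of at least 0.5; other lists were counted and up to 4 called genes named. Exceptions named after their values were seen are uncalled members, Tfrc, Nr5a1, Alas2 and Cyp11a1, and neighbours on the opposite strand. Results for some genes of the haem supply and erythroid lists, and the counts called in those lists, are not reported here.

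Same-numbered control XY and Dfo XY libraries deviated together from their group means (r = 0.214, 0.119 and 0.335 across genes), which meets the rule for pairing of 0.1, though control replicate 1 and Dfo replicate 2 (0.144) and control replicate 2 and Dfo replicate 1 (0.177) did too. Positions are from GENCODE M21 and promoters from RefSeq GRCm38.p6. The 22 alternatives changed the scaling, pseudocount, filter, libraries or block.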

Additional observations from a re-analysis of the deposited data

Results flagged for a closer look

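The sex difference of Fdx1 in control culture, minus that at E11.5, was 1.32 on the log2 scale. Fdx1 was lower in XY than in XX at E11.5, and in culture it was higher in XY, which was not called. Fdx1 was the only one of the 35 genes for which the test of the difference itself was past the threshold (limma adjusted p = 0.0468). The groups held 2 or 3 libraries, and the call held under 4 of 22 alternatives. Over all genes 1.33% were called. The cause was not tested.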

How the results depend on the processing

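The number of the 35 genes called moved with the settings below; the cause was not tested. Of 13 genes called between Dfo XY and control XY, Hmox1, Cpox, Glrx5 and Urod were called under all 22 alternatives, and 7 of 13 kept their call without each library in turn. The number called between these groups was 7 with the close replicates averaged and 4 without the Xist-holding libraries, and 8 to 14 when 1 library was left out; the replicate block gave 13 and changed no call of these genes. Between Dfo XY and control XX it was 7 under median-of-ratios scaling, 8 under quantile normalization, 9 without the 50 most abundant genes, 9 without the Xist-holding libraries, 0 with the replicate block and 10 to 16 with 1 library out. For control XY against control XX it was 1 under each of the 3 scalings, 0 with the close replicates averaged, 0 with the block and 1 to 6 with 1 library out. For E11.5 XY against E11.5 XX it was 0 under the 3 scalings, with only the groups compared, with the block, with the close replicates averaged and without the Xist-holding libraries, and 0 to 1 with 1 library out. For control XY against E11.5 XY it was 2 under median-of-ratios scaling, 3 under quantile normalization, 3 without the 50 most abundant genes, 2 with only the groups compared, 0 with the block, 0 with the close replicates averaged and 0 to 2 with 1 library out. For control XX against E11.5 XX it was 1 with a pseudocount of 0.1, 1 with a TPM filter of at least 5 and 0 to 1 with 1 library out. For the interaction it was 0 under the 3 scalings, without a filter, with only the groups compared, with the block, with the close replicates averaged and without the Xist-holding libraries, and 0 to 3 with 1 library out. In the comparisons with a group of 2, replicate numbers were only shared. Signs reversed for Hmox2 between control XY and control XX under quantile normalization (0.0249) and for Urod between Dfo XY and control XX under median-of-ratios scaling (0.1101) and quantile normalization (0.0827). TPM keeps no depth, so what depth limits cannot be given.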
